A study of Homo sapiens with 10 samples.

Results

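Promoter interactions that spanned 1 to 2 Mb and ended outside every baited promoter were taken from Promoter Capture Hi-C (PCHi-C) data of human embryonic stem cells (ESCs) and of the neuroectodermal cells (NECs) derived from them. The ESCs were the H9 (WA09) line grown in Pluripro medium and matrix, and the NECs were H9 cells differentiated towards neuroectoderm and harvested on day 7, with no other treatment or genetic change in the labels. Each cell type had 2 biological replicates for PCHi-C and 2 for RNA-seq. All samples came from 1 cell line, so the replicates measured the spread between cultures of that line.

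In PCHi-C, DNA is cut with HindIII, ligated to its neighbours in the nucleus, and the ligation products that hold a promoter fragment (the bait) are captured and sequenced. The other end of an interaction is the promoter-interacting region (PIR). The CHiCAGO score of a pair rises as its read count exceeds the background expected at that distance, and the deposited lists hold only pairs with a score of at least 12. An interaction was retained if it was listed in the merged ESC or the merged NEC list, lay within 1 chromosome, had fragment midpoints 1 to 2 Mb apart and had a PIR that was not itself a bait. The rule left 4844 of 154580 interactions, from 1876 of 21833 baits to 4087 PIRs. The merged ESC list gave 1750 of its 99302 interactions and the merged NEC list gave 3506 of its 99181. The interactions were thus chosen by the distances and scores of the merged lists, which are given as description, without a test.

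Contacts of this length are rare in mammalian nuclei, because contact frequency falls steeply with distance and most promoter contacts stay within one topologically associating domain. CTCF, a zinc-finger protein that binds a directional DNA motif, halts the loop-extruding cohesin complex, and loop anchors often carry CTCF motifs that point at each other. Genes repressed by Polycomb, many of which encode developmental transcription factors, and the clustered histone genes are known for contacts across very long distances.

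The sequences below show the best-scored PIRs that held a single exact match to the CTCF consensus motif, which is the feature the PIR comparison further on turns on. All are GRCh37 sequence, read 5′ to 3′ on the strand of the match, with the motif match in capitals and 24 flanking bases on either side. The first 8 had the motif pointing towards the bait.
BASP1 PIR, chr5:18282229-18282289, minus strand: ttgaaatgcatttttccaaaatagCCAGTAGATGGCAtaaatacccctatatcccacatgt
NRP1 PIR, chr10:34927538-34927598, minus strand: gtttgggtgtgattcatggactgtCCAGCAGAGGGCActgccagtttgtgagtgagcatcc
COL12A1 PIR, chr6:74679862-74679922, plus strand: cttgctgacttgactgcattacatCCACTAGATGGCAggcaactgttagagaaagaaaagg
PCDH19 PIR, chrX:98557136-98557196, plus strand: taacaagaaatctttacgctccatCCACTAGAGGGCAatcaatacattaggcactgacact
RP11-141A19.1 PIR, chr1:50799386-50799446, minus strand: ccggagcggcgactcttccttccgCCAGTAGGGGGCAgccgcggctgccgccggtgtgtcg
TMTC2 PIR, chr12:84217638-84217698, minus strand: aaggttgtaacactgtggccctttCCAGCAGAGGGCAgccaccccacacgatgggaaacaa
NXPH1 PIR, chr7:10168552-10168612, minus strand: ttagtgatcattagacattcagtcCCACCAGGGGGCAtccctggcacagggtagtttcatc
GPC6 PIR, chr13:95014807-95014867, minus strand: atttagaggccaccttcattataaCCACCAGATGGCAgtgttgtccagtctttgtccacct
The last 2 had the motif pointing away from the bait.
RP11-36B15.1 PIR, chr4:38706420-38706480, plus strand: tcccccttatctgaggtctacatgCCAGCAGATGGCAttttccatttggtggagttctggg
PDGFRA PIR, chr4:53849894-53849954, minus strand: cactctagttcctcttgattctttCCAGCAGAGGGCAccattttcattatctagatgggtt

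Several of these baits belong to genes of the nervous system. BASP1 encodes a growth-cone membrane protein, NRP1 a co-receptor for semaphorins and VEGF, PCDH19 a protocadherin and NXPH1 a ligand of neurexins. The BASP1 interaction with the printed PIR was 1066 kb long and scored 21.8 in the merged NEC list, 20.2 in NEC replicate 1 and 16.1 in NEC replicate 2, with no call in any ESC list. The COL12A1 interaction, 1232 kb long, was called in all 4 replicates, with scores of 14.7 and 12.2 in ESCs and of 18.2 and 15.2 in NECs. The match in the NRP1 PIR lay within PARD3 and that in the GPC6 PIR within GPC6 itself, both outside protein-coding exons. The match in the PDGFRA PIR lay likewise within SCFD2, and the others overlapped no gene.

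A pair of short PIRs is shown whole, the PIR of the highest ESC score and the short PIR with the most baits, with the bases that the HindIII cut leaves at the fragment start in capitals.
OR4C5 PIR, chr11:50038981-50039232, plus strand: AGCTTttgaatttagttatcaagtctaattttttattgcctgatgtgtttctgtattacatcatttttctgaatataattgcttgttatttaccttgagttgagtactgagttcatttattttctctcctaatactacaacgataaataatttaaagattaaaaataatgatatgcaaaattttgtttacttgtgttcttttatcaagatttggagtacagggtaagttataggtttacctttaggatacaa
Histone gene PIR, chr6:27789606-27789780, plus strand: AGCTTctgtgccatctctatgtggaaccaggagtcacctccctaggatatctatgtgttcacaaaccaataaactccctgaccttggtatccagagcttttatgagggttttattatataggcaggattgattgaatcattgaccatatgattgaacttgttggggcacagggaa

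The OR4C5 PIR was 252 bases long with a GC content of 26.2%, and 19.8% of its 31-base words occurred elsewhere in the genome. The histone gene PIR was 175 bases long with a GC content of 42.3%, and none of its 31-base words was repeated. It was contacted from 8 baits, 1 in the ESC list and 8 in the NEC list.

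The number of retained interactions fell with distance, and few of them recurred from one cell type to the other. The shared set held 412 interactions, which was 23.5% of the ESC set and 11.8% of the NEC set, beside 1338 listed only in ESCs and 3094 listed only in NECs. A pair absent from a list had a score under 12 there, and some of these pairs were called in 1 or both replicates of the other cell type. The retained interactions made up 2.59% of the calls within a chromosome to non-bait PIRs in ESCs and 5.19% in NECs. ESC contacts had a median span of 1223 kb and NEC contacts one of 1256 kb, and 46.1% and 40.8% of them, respectively, spanned 1.0 to 1.2 Mb.

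The typical bait had 1 such contact. In ESCs 563 of 853 baits, and in NECs 920 of 1459 baits, had exactly 1, whereas the most at a single bait were 52 and 28. In 27.1% of ESC interactions and 35.8% of NEC interactions the same bait had another such PIR within 10 kb. The median score was 12.9 in ESCs and 13.1 in NECs, near the minimum of the lists, against 13.2 and 13.4 for interactions of 50 kb to 1 Mb. A score of at least 15 was reached by 267 interactions in ESCs (15.3%) and 725 in NECs (20.7%). The distance limits did not fall at a break in the data. The ESC interaction just inside 1 Mb spanned 1000.5 kb with a score of 12.38, and the one just outside spanned 999.1 kb with 12.16. In NECs the pair at that limit spanned 1000.3 kb (13.86) and 999.9 kb (12.22).

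**Figure D1:**
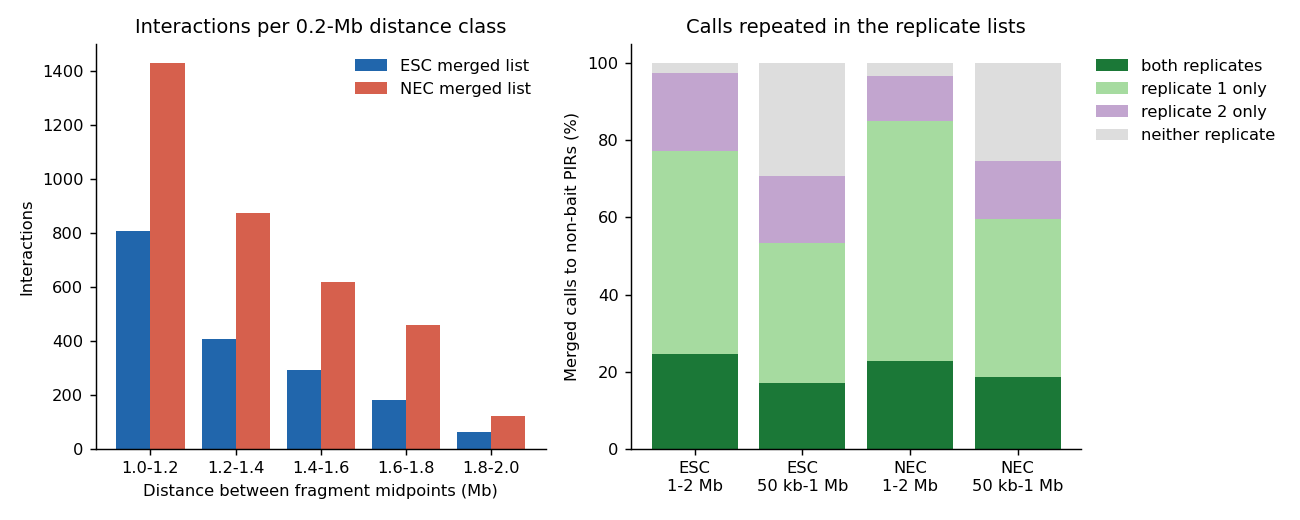
Left, number of interactions (y axis) by distance between fragment midpoints (x axis, Mb) in the merged ESC and NEC lists. Right, share of merged calls (y axis, %) that were called in both replicates, in 1 or in neither, for 1 to 2 Mb and for 50 kb to 1 Mb. Counts fell from 806 to 64 in ESCs and from 1430 to 121 in NECs between the nearest and farthest bins, and 24.6% and 22.7% of the 1 to 2 Mb calls were made in both replicates.

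About 1 call in 4 was made in both replicates of its cell type. In ESCs this held for 431 of 1750 interactions (24.6%, 95% Wilson interval 22.7 to 26.7%), and in NECs for 795 of 3506 (22.7%, 21.3 to 24.1%). Replicate 1 alone accounted for 922 ESC and 2189 NEC interactions, and replicate 2 alone for 351 and 409. The merged lists thus leaned towards replicate 1 in both cell types. The replicates were also the input of the merged lists, so these shares describe the calls and are no independent check. Calls made in both replicates had median scores of 14.6 in ESCs and 15.7 in NECs, against 12.2 in both cell types for calls made in neither. Among interactions of 50 kb to 1 Mb, 17.2% in ESCs and 18.6% in NECs were called in both replicates. Calls made in neither replicate were 2.63% and 3.22% at 1 to 2 Mb, and 29.2% and 25.4% at 50 kb to 1 Mb. Over all 4 replicates, 99 of the retained interactions were called in every list, 3138 in exactly 1 list and 127 in none.

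Each replicate list was also searched on its own for calls of the same class. ESC replicates 1 and 2 held 10038 and 9952 such calls, and NEC replicates 1 and 2 held 13952 and 9090. The NEC replicates thus lay on either side of both ESC replicates. The means were 9995 ± 60.8 in ESCs and 11521 ± 3438 in NECs (SD, n = 2 each), and an exact two-sided permutation test gave p = 1.0, where the smallest p this design allows is 0.33. As shares of the calls to non-bait PIRs, the values were 14.7% and 17.3% in ESCs and 19.4% and 16.6% in NECs, and these overlapped as well (exact permutation p = 0.667). At a score of at least 15 the NEC lists both exceeded the ESC lists, by 360 calls on average (exact permutation p = 0.33, the smallest p possible), so the separation of the replicate lists depended on the score. ESC replicates 1 and 2 had 456 calls in common (4.54% and 4.58% of them), whereas ESC replicate 1 and NEC replicate 1 had 670 (6.67% and 4.8%). NEC replicates 1 and 2 had 813 in common (5.83% and 8.94%). The other pairs of an ESC with a NEC replicate had 454 (ESC 1 and NEC 2), 534 (ESC 2 and NEC 1) and 385 (ESC 2 and NEC 2) in common. The overlap between the ESC replicates thus fell within the range of the overlaps between cell types, from 385 to 670.

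A stricter set listed in one cell type alone was formed from calls made in both of its replicates and in no list of the other. It held 221 interactions at 162 baits in ESCs and 474 at 308 baits in NECs.

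The interactions were unevenly spread along the genome. When interactions with both ends within 250 kb of each other were joined, 1176 contact blocks resulted, of which 659 held 1 interaction and 40 held at least 20. Those 40 blocks held 1736 interactions (35.8%). Chromosome 6 alone held 17.3% of all interactions. The blocks were defined after the data had been seen.

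**Figure D2:**
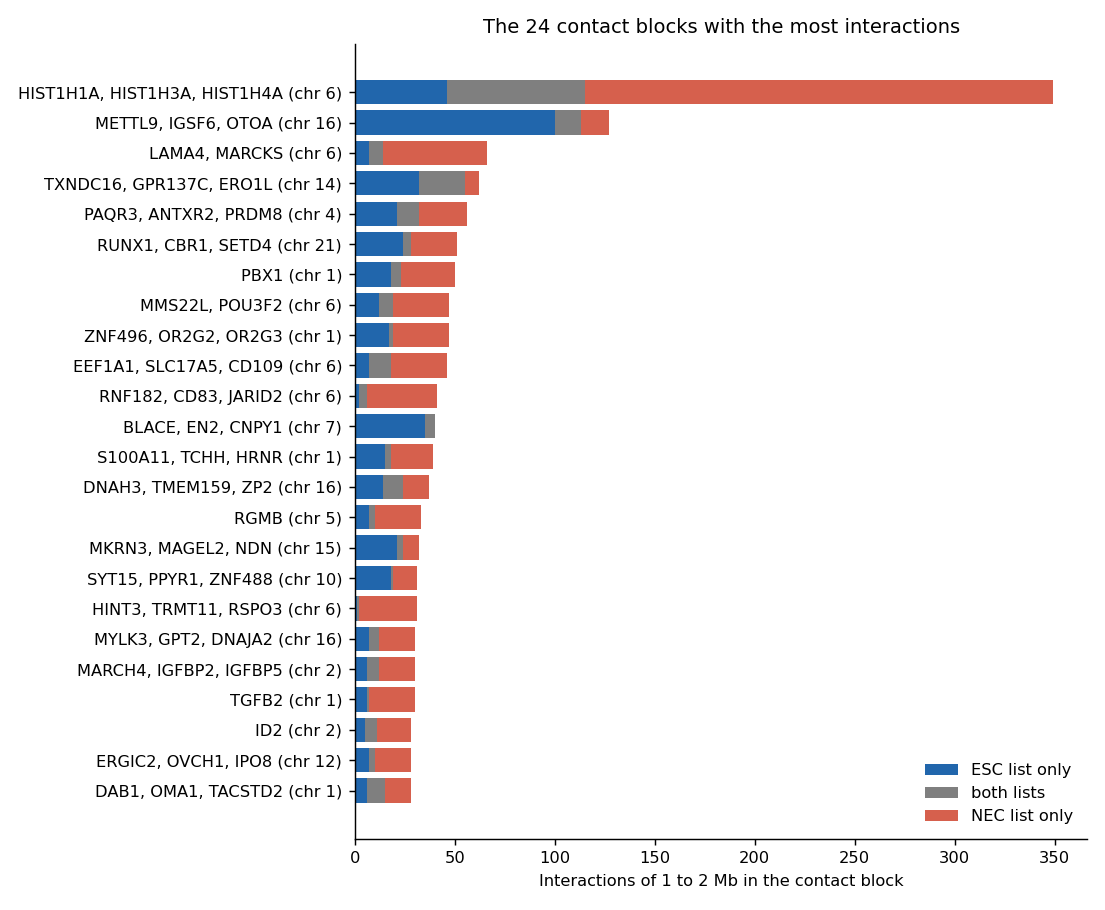
Number of interactions (x axis) in each of the 24 largest contact blocks (y axis, named by bait genes and chromosome), divided into those listed only in ESCs, in both cell types and only in NECs. The histone gene block of chromosome 6 was the largest, with 349 interactions. The chromosome 7 block with EN2 and MNX1 among its bait genes held 40, all in the ESC list.

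The largest block joined the clustered histone genes of chromosome 6, whose products package newly replicated DNA. It spanned chr6:26016682-27978143 and held 349 interactions between 36 baits and 86 PIRs, 115 in ESCs, 303 in NECs and 69 in both. Its calls per replicate numbered 126 and 95 in ESCs and 241 and 264 in NECs, a difference that restates the merged lists through which the interactions were chosen. In NECs 185 of them were called in both replicates, and in ESCs 43. The block supplied 32 of the 99 interactions called in all 4 replicates. A median of 22 protein-coding gene starts lay between the ends, which linked the first histone gene group with the more distal one across the genes between them.

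All of the 5 PIRs with the most baits lay in this block. The PIR at chr6:27786656-27789605, which overlapped no gene, was contacted from 20 baits, 9 in ESCs and 19 in NECs. With the bait of HIST1H3D and HIST1H2AD, 1590 kb away, it scored 32.7 and 13.5 in the ESC replicates. In the NEC replicates it scored 60.6 and 40.1, each above both ESC values. This pair was named for its high merged NEC score, which is made from these replicates, so the order is no independent check. HIST1H1B, which encodes a linker histone, contacted a PIR 1629 kb away with scores of 30.9 and 32.9 in ESCs and 35.2 and 30.2 in NECs, which overlapped. Near-identical copies are a concern in a gene family. The median PIR of the block had 13.5% of its 31-base words repeated in the genome, against 6.22% over all PIRs, and no pair in the whole set had more than 3.82% of the PIR's words in common with its bait. Among the baits of the best-scored interactions in the block the repeated share ran from 2.5% (HIST1H1B) to 39.8% (HIST1H4K), with 20.2% for HIST1H4L. The part of repeated sequence in these calls was not tested.

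The second block, at chr16:21578174-23314246, had more interactions in the ESC list. It held 127 interactions, 113 in ESCs and 27 in NECs. Of these, 95 and 60 were called in ESC replicates 1 and 2 and 40 and 11 in NEC replicates 1 and 2. These replicate counts depend on the merged lists through which the interactions were chosen. The median PIR of this block had 9.45% of its 31-base words repeated in the genome, and the part of repeated sequence was not tested. The bait of METTL9, a histidine methyltransferase gene, had 52 contacts in ESCs and 14 in NECs over a range of 1021 to 1544 kb. The neighbouring bait of IGSF6, an immunoglobulin superfamily gene, had 24 and 6. METTL9 was expressed at 113 and 109 CPM (counts scaled to a common library size) in ESCs and 145 and 138 CPM in NECs, a difference under the fold threshold (log2 fold change 0.35, SE 0.08, adjusted p = 0.0112), and IGSF6 had at most 1 count in any library.

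On chromosome 14 a block of 62 interactions, 55 in ESCs and 30 in NECs, linked the region of ERO1L and PSMC6 with that of CNIH, GMFB and CGRRF1. CNIH encodes an export receptor for growth factors of the secretory pathway, and ERO1L an oxidase of the endoplasmic reticulum. The CNIH bait contacted a PIR at PSMC6, 1718 kb away, with scores of 41.2 and 31.9 in the ESC replicates, against 41.5 and 42.6 in those of NECs. The next PIR along, 1722 kb away, scored 41.9 and 46.4 in ESCs and 37.3 and 41.9 in NECs. At the PIR 1718 kb away both NEC scores lay above both ESC scores and at the next one the ranges met at 41.9. Both PIRs were named for high merged scores in each cell type, so these orders are description only. The ERO1L bait, at the other side of the loop, had 21 contacts in ESCs and 13 in NECs that reached back towards CNIH, so the contact was recovered from both sides. CNIH was expressed at 32.7 and 29.2 CPM in ESCs and 27.1 and 29.1 CPM in NECs, and the difference did not pass the test (log2 fold change -0.14, SE 0.11, adjusted p = 0.318).

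EN2 and MNX1 are homeobox genes that pattern the midbrain-hindbrain boundary and specify motor neurons and pancreas, respectively. Their baits lay in a block of 40 interactions from 5 baits on chromosome 7, which also held the baits of BLACE and CNPY1. All 40 were listed in ESCs and 5 in NECs, and 22 were called in both ESC replicates against 2 in both NEC replicates. The replicate lists held 39 and 23 of them in ESCs and 6 and 10 in NECs, counts that depend on their choice through the merged ESC list. Counted in the replicate lists alone, the MNX1 bait had 29 and 19 calls of this class in ESCs and 4 and 7 in NECs. The EN2 bait had 14 and 8 in ESCs and 4 and 3 in NECs. The MNX1 bait was itself named for its number of ESC contacts, and these differences were not tested. From the EN2 bait, a PIR within MNX1 at 1540 kb scored 35.1 and 29.9 in ESC replicates 1 and 2 and 12.3 and 21.0 in NEC replicates 1 and 2. A second PIR at 1555 kb, over MNX1-AS1, scored 33.0 and 35.1 in the ESC replicates and was called in no NEC list. In the opposite direction, the MNX1 bait contacted a PIR within CNPY1 at 1501 kb with 51.1 and 23.4 in ESCs and 12.7 and 14.9 in NECs. EN2 had 0 counts in both ESC libraries and 124 and 25 counts in the NEC libraries, and MNX1 had at most 10 counts in any library.

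POU3F2, a neural POU-domain transcription factor gene, had 13 contacts in ESCs and 25 in NECs, of which 6 were shared. No protein-coding gene started between its bait and the PIR in the median contact. Its best NEC interaction, at 1110 kb, scored 19.2 and 19.3 in the NEC replicates and was called at 12.6 in ESC replicate 1 and not in ESC replicate 2. Its best ESC interaction, at 1342 kb, was called in ESC replicate 1 alone, at 20.4. The number of calls at the POU3F2 bait was 25 and 8 in the ESC replicates, against 27 and 13 in those of NECs, which overlapped.

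**Figure D3:**
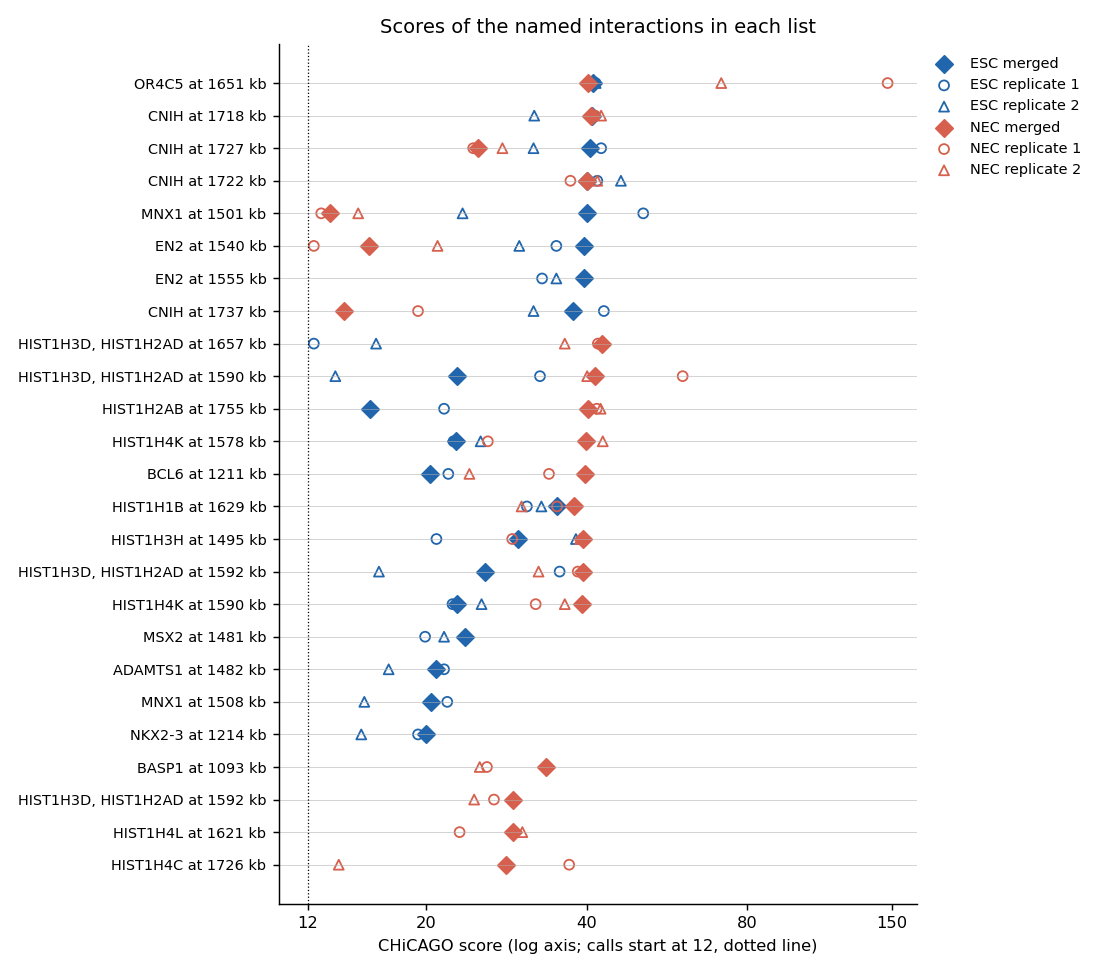
CHiCAGO scores (x axis, log scale) of the named interactions (y axis, bait gene and distance) in the merged lists (diamonds) and in each of the 4 replicates (circles and triangles), with no point where a list held no call and a dotted line at the minimum of 12. The OR4C5 interaction spanned 41.6 to 147 in the replicates, and the BASP1 interaction had points in NEC lists only.

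The best-scored single interactions fell into the same loci with few exceptions. OR4C5, an olfactory receptor gene with 0 counts in all 4 RNA libraries, had 8 ESC and 3 NEC contacts with 2 in common, and its best, at 1651 kb, had scores of 41.6 in both ESC replicates and of 147 and 71.6 in NEC replicates 1 and 2. The NEC scores were both above the ESC scores, while the merged scores were 41.1 and 40.3. The PIR lies near the centromere of chromosome 11. BCL6, a transcriptional repressor gene, contacted a PIR within TPRG1 at 1211 kb with 22.0 in ESC replicate 1, no call in ESC replicate 2, and 34.0 and 24.1 in the NEC replicates.

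Of the interactions found in both ESC replicates and in no NEC list, the best after EN2 joined MSX2, a homeobox gene of neural crest and bone, to a PIR 1481 kb away near the cardiac gene NKX2-5, with scores of 19.9 and 21.6. ADAMTS1, a secreted protease gene, contacted a gene-free PIR at 1482 kb with 21.6 and 17. NKX2-3 contacted a PIR in PAX2 at 1214 kb with 19.3 and 15.1. In NECs the best such interaction joined BASP1 to a gene-free PIR at 1093 kb, with 26 and 25.2, ahead of interactions of HIST1H3D, HIST1H4L and HIST1H4C. That BASP1 PIR had 20.3% of its 31-base words repeated in the genome, against a median of 6.22% over all PIRs. The part of repeated sequence in this call was not tested.

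A list of 176 developmental transcription factors had 171 that start in a bait, and 54 of these (31.6%) start in a bait with at least 1 retained contact, against 1313 of 16951 (7.75%) for all protein-coding genes that start in a bait. A list of neural adhesion and axon guidance genes had 35 of 87 (40.2%), and 28 of those baits had contacts only in NECs, 7 in both cell types and 0 only in ESCs, beside 737, 302 and 274 for all protein-coding genes at baits with a retained contact. Ribosomal protein genes had 4 of 57 (7.02%), and the short marker lists had 1 of 9 for neuroectoderm, 2 of 10 for neural crest, 1 of 10 for mesendoderm and 0 of 7 for pluripotency. These lists were chosen with earlier results of the same data known, and no test was run on them.

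Contacts that joined a listed developmental factor gene at the bait with another within 10 kb of the PIR numbered 11, of which 10 were listed only in ESCs and 1 only in NECs. FOXA1, an endoderm pioneer factor gene, contacted the region of NKX2-1 in 3 of them, at 1076 to 1091 kb. The FOXA1 contact at 1091 kb was called at 15.9 in ESC replicate 1 and at 15.2 in NEC replicate 2, and not in ESC replicate 2. Of these 3, only the contact at 1076 kb was called in both ESC replicates, at 12.2 and 12.8. MSX2 contacted the region of NKX2-5 in 2 of the 11. TBX3, a T-box gene, contacted the region of LHX5, a LIM homeobox gene, in 2, and LHX5 contacted the region of TBX3 in 1, so that this pair was seen from both sides. The LHX5 contact scored 19.6 and 13.6 in the ESC replicates, and each of the TBX3 contacts was called in 1 ESC replicate. The 1 contact found only in the NEC list joined FOXA2 and NKX2-2 at 1060 kb, with a score of 12.2 and a call in 1 ESC and 1 NEC replicate. Of the 11, 5 were called in both ESC replicates, and none in both NEC replicates. PIRs lay within 10 kb of a listed start in 1.1% of cases, against 0.116% of the fragments that lay 1 to 2 Mb from a retained bait and were not baits, and 0.436% of PIRs at 50 kb to 1 Mb. Those fragments were shorter, with a median of 2367 bases against 4637 for the PIRs, so the shares were not matched for length. The gene list was the one chosen with earlier results known, and no test was run.

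The PIRs held no gene about as often as the fragments around them and more often than the PIRs of shorter contacts, while other overlaps differed from both. No annotated gene overlapped 36.2% of them (95% Wilson interval 34.7 to 37.6%), against 35.8% of the 471655 fragments available 1 to 2 Mb from the same baits and 25.5% of the PIRs at 50 kb to 1 Mb. Exons of protein-coding genes were overlapped by 19.1%, against 14.2% and 33.7%, and their introns alone by 21.2%, against 31.2% and 25.5%. The median GC content was 39.8%, against 38.9% and 43.0%. The median length of 4637 bases was close to that of the shorter contacts, 4645 bases, and above that of the available fragments, 2367 bases, so that these overlaps were not matched for length. The median PIR lay 88.2 kb from the nearest protein-coding start, and 21.9% lay within 10 kb of another bait. Between bait and PIR lay a median of 2 protein-coding starts, with 0 in 957 interactions (19.8%) and as many as 80.

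The CTCF consensus motif, searched by exact match on both strands in the central 2000 bases of each fragment of that length or more, was found in 33 of 3493 PIRs (0.945%, 95% Wilson interval 0.674 to 1.32%). Of the available fragments, searched in the same window, 0.331% held it, and of the PIRs at 50 kb to 1 Mb 1.08% held it. The share in long-range PIRs thus lay above that of the available fragments and its interval covered that of the shorter contacts. With 1 mismatch allowed the shares were 6.21%, 3.87% and 7.12%. The 86 PIRs of the histone block gave 0 of 52 with a match, where the upper 95% limit is 6.88%. A match is a description of the sequence and does not show that CTCF was bound.

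Where a PIR held a single exact match anywhere in the fragment, the motif more often pointed towards the bait. This was so in 80 of 97 interactions (82.5%), which came from 85 PIRs, in 18 of 21 in ESCs and in 70 of 84 in NECs. Among interactions called in both replicates of a cell type it was 20 of 25 (80%). At 50 kb to 1 Mb it was 2268 of 3026 (75%), and over the available fragments with 1 match it was 2980 of 5723 (52.1%). The printed PIRs of BASP1, NRP1, COL12A1 and NXPH1 were among those that pointed towards the bait, and that of PDGFRA was among the 17 that pointed away.

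**Figure D4:**
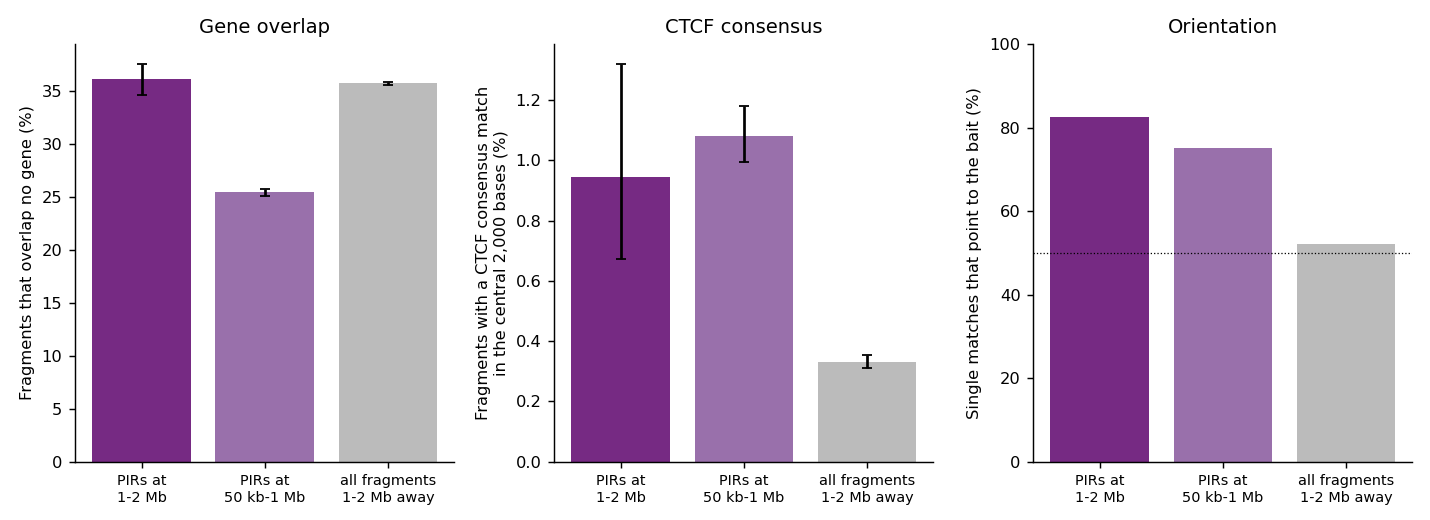
Share of fragments (y axes, %) that overlap no gene (left) and that hold a CTCF consensus match in the central 2000 bases (middle), with 95% Wilson intervals as bars, and share of single matches that point to the bait (right), for the long-range PIRs, the PIRs at 50 kb to 1 Mb and the available fragments, in that order from left to right. The first share was 36.2%, 25.5% and 35.8%, the second 0.945%, 1.08% and 0.331%, and the third 82.5%, 75% and 52.1%.

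The RNA-seq libraries matched their labels. Of 10 pluripotency markers 9 fell in NECs, with summed levels of 6592 and 7107 CPM in ESCs and 1084 and 1670 CPM in NECs, and all 10 neuroectoderm markers rose, from 7.42 and 5.58 to 448 and 344 CPM. Of 10 neural crest markers 7 were called higher and 1 lower in NECs. Their summed level was uneven, at 131 and 129 CPM in ESCs and 238 and 83.3 CPM in NEC replicates 1 and 2. Of 9 mesendoderm markers tested 0 were called higher and 7 lower in NECs. By the sample names, each cell type's RNA libraries shared a lane of their own, and lane and cell type cannot be told apart. Total counts per library ranged from 19234087 to 25356382. In these bulk samples fewer cells of a type and less RNA per cell cannot be told apart.

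Genes that start in a bait with a retained contact were called higher in NECs somewhat more often than genes at large. A gene was called at an adjusted p under 0.05 and a log2 fold change beyond 1.5 in the edgeR quasi-likelihood test. By this rule 11.4% of the 17564 genes tested were higher in NECs and 9.68% were lower, with 21.0% called in either direction. Of the 1847 genes that start in these baits 1177 passed the filter on low counts, and 193 of them (16.4%) were higher and 121 (10.3%) lower in NECs. Their log2 fold changes had a median of -0.03, against 0.01 over all genes tested. Without the fold threshold 382 of them were higher (32.5%) and 365 lower (31%), beside 31.5% and 29.7% of all genes tested. Genes of baits with contacts in both cell types had 59 higher (21.1%) and 28 lower (10%) of 279. Genes of baits with contacts only in NECs had 104 higher (15.5%) and 72 lower (10.7%) of 672, and those of baits with contacts only in ESCs had 30 higher (13.3%) and 21 lower (9.29%) of 226. The cell type in which a contact was listed thus came with no clear shift in the direction of expression, and the difference between these groups was not tested. Of the 1876 baits, 364 held no gene start of the count table.

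**Figure D5:**
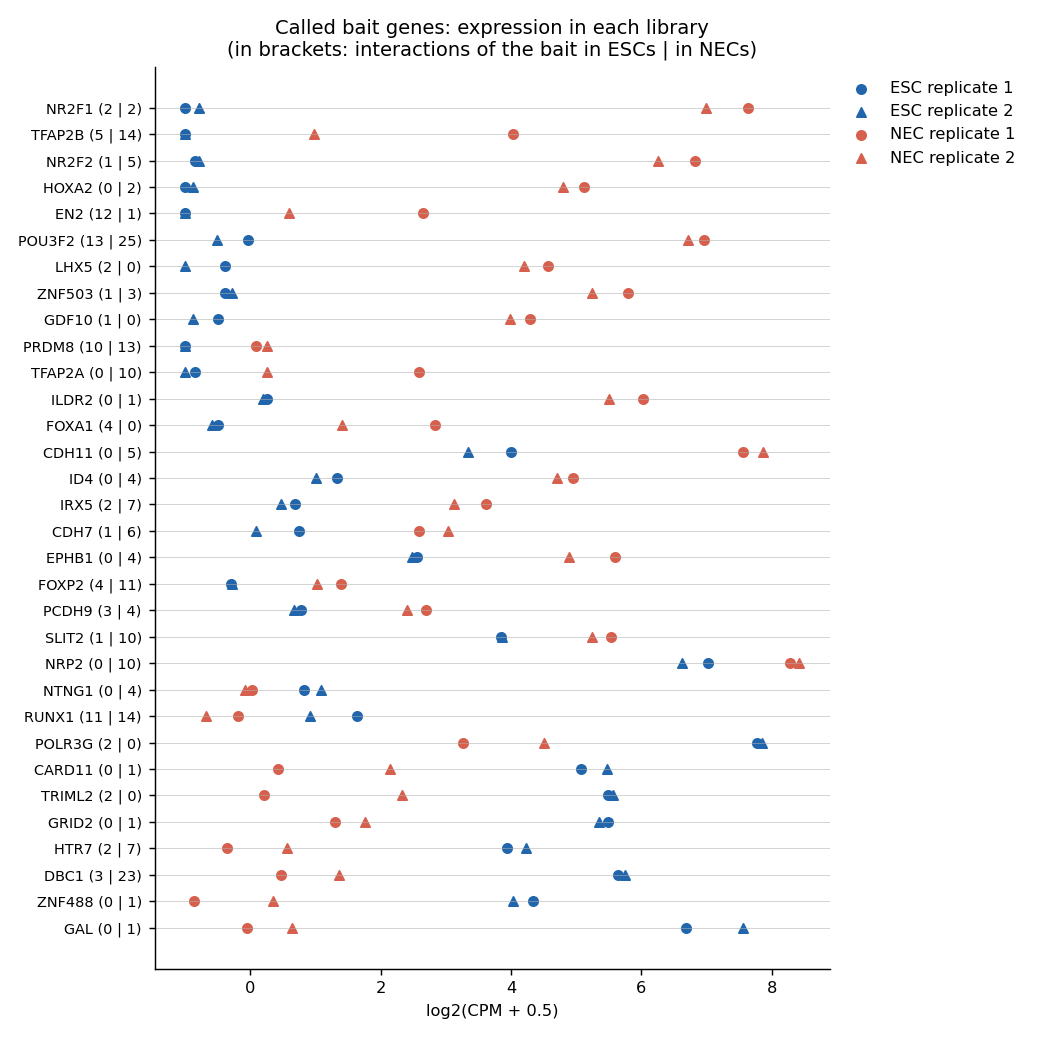
Expression in each library (x axis, log2(CPM + 0.5)) of 32 genes that start in a bait with a retained contact and passed the test, namely those that rose or fell most and those of the gene lists (y axis, with the number of ESC and NEC contacts in brackets). The genes were drawn because they passed the test, so the lack of overlap between their ESC and NEC points follows from that choice. Of them 22 were higher and 10 lower in NECs, a split that depends on the naming rule. DBC1 was lower in NECs with 3 ESC and 23 NEC contacts.

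The 8 genes that rose most included transcription factor genes such as NR2F1, NR2F2 and POU3F2, and also GDF10, which encodes a secreted growth factor, and ILDR2, a membrane protein gene. NR2F1, an orphan nuclear receptor gene of forebrain patterning, had 0 and 2 counts in ESCs and 4252 and 3103 in NECs, a ratio of 3482 (95% counting interval 964 to 28760). It had 2 contacts in ESCs and 2 in NECs, none shared. Its relative NR2F2 had 1 and 2 counts in ESCs and 2405 and 1869 in NECs, a ratio of 1349 (461 to 6544). The NR2F2 bait had 1 contact in ESCs and 5 in NECs, the best at 1033 kb with scores of 15.8 and 24.6 in the NEC replicates.

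POU3F2 had 0.477 and 0.202 CPM in ESCs and 124 and 104 CPM in NECs (log2 fold change 8.44, SE 0.25, adjusted p = 1.03e-05). ZNF503, a zinc-finger repressor gene, rose from 0.265 and 0.324 to 55.1 and 37.5 CPM. LHX5 rose from 0.265 and 0 to 23.2 and 17.8 CPM, whereas its contacts with the TBX3 region were listed only in ESCs.

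The levels of other genes whose ESC contacts are described above follow. FOXA1 rose from 0.212 and 0.162 to 6.6 and 2.15 CPM (log2 fold change 4.52, SE 0.72, adjusted p = 0.00222). MSX2 rose from 0.424 and 0.566 to 18.3 and 1.58 CPM (log2 fold change 4.28, SE 1.18, adjusted p = 0.0187). EN2, with 0 counts in ESCs, was at least 21.4-fold higher in NECs, at 5.8 and 1.01 CPM. MSX2, FOXA1 and EN2 were highest in NEC replicate 1, the library with more neural crest RNA, whose part in these differences was not tested. Without that library the log2 fold change was 1.65 for MSX2 and 3.51 for FOXA1 and the bound for EN2 was 6.38-fold, and all 3 genes were still called. NKX2-3 had 0 counts in all 4 libraries, and TBX3 was at 1.01 CPM in both ESC libraries and at 0.983 and 0.608 CPM in NECs.

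Among the listed developmental factors whose baits had retained contacts, 39 genes passed the filter, of which 25 rose and 4 fell. Of 1020 protein-coding genes tested at all such baits, 165 rose and 99 fell. Over all genes tested 11.4% rose and 9.68% fell. The list was chosen with earlier results known, and listed factors without contacts were not counted for comparison. TFAP2B, a neural crest factor gene, had 0 counts in ESCs and 339 and 36 in NECs, at least 54.5-fold higher. Without NEC replicate 1 it was at least 9.18-fold higher. TFAP2B is itself among the neural crest markers whose summed level was higher in that library. The TFAP2B bait contacted a PIR within PKHD1 at 1100 kb. That contact scored 14.9 and 14.3 in ESC replicates 1 and 2 and 27.6 and 18.9 in NEC replicates 1 and 2. ID4, an inhibitor of basic helix-loop-helix factors, rose from 2.01 and 1.5 to 30.3 and 25.7 CPM. RUNX1, a blood development factor gene with 11 ESC and 14 NEC contacts, fell from 2.6 and 1.38 to 0.374 and 0.122 CPM.

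GATA3, DLX5 and DLX6 had contacts in both cell types at very low RNA levels. The DLX6 bait contacted a PIR in DYNC1I1 at 1090 kb with scores of 19.9 and 16.7 in the NEC replicates and of 15.4 in ESC replicate 2, and DLX6 had at most 2 counts in any library.

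Of the adhesion and guidance genes 33 passed the filter, of which 18 rose and 5 fell, beside 165 and 99 of the 1020 protein-coding genes. This list was likewise chosen with earlier results known, and its genes without contacts were not counted. CDH11, a mesenchymal cadherin gene, rose from 15.4 and 9.67 to 187 and 232 CPM and had contacts only in NECs, the best at 1150 kb with 14 and 15.3. EPHB1, an ephrin receptor gene, rose from 5.4 and 5.06 to 47.8 and 29.1 CPM. SLIT2, which encodes a guidance ligand, rose from 13.9 and 14.1 to 45.6 and 37.4 CPM, a call lost without NEC replicate 1 (log2 fold change 1.42), and its best contact, at 1562 kb, scored 14.1 and 13.5 in ESCs and 19.8 and 15.1 in NECs. NTNG1, a netrin family gene, fell from 1.27 and 1.62 to 0.515 and 0.446 CPM while its contacts were listed only in NECs, and this call was lost without ESC replicate 2 (log2 fold change -1.40) and without NEC replicate 2 (-1.49).

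Some genes that fell in NECs had contacts in NECs. DBC1, a neuronal gene with growth-suppressing activity, fell from 49.3 and 53.2 to 0.889 and 2.07 CPM (log2 fold change -5.08, SE 0.29, adjusted p = 4.98e-05), while its bait had 23 contacts in NECs and 3 in ESCs. The best of them, at 1718 kb, scored 12.5 in ESC replicate 2 and 26.5 and 15.9 in the NEC replicates. GAL, which encodes the neuropeptide galanin, fell from 102 and 187 to 0.468 and 1.05 CPM. POLR3G, an RNA polymerase III subunit gene with contacts only in ESCs, fell from 219 and 230 to 9.13 and 22.1 CPM. BASP1, with the best NEC contact that was absent from ESCs, was at 295 and 267 CPM in ESCs and 190 and 189 CPM in NECs, a difference under the fold threshold (log2 fold change -0.57, SE 0.09, adjusted p = 0.00239).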

How the data were processed

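PCHi-C and RNA-seq files of the ESC and NEC samples were used, and the Hi-C samples were not analysed here. The authors deposited interaction lists with CHiCAGO scores, 1 per replicate and 1 per cell type with replicates merged within the caller; the lists hold calls and scores but no read depth. They deposited raw RNA-seq counts per gene, and the submitters' processing notes name hg19, Bowtie 1.0.0 and TopHat2 2.0.8b. The authors counted without regard to strand, so overlapping and antisense genes cannot be told apart. Total counts were 19234087 and 25356382 in ESC replicates 1 and 2 and 20793224 and 24323762 in NEC replicates 1 and 2.

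All 158504 listed fragments matched a HindIII digest of GRCh37. Gene overlap used GENCODE on that build, and motifs and repeated 31-base words were counted in its sequence. Contact blocks joined interactions with both ends within 250 kb. Counts were tested in R 4.3.3 with edgeR 4.0.16 (filterByExpr with a minimum count of 10, TMM, quasi-likelihood, Benjamini-Hochberg adjustment), and the script was tested on simulated data. Replicate lists were compared by exact permutation over samples, in Python 3.11.15. Intervals are 95% and cover counting error only; fold bounds used a floor of 3 counts per library.

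Named were the 8 best-scored interactions per cell type, the 10 best in all 4 replicates, the 5 best replicated in 1 cell type alone, the 6 baits with most contacts per cell type, the 5 PIRs with most baits, the 8 genes that rose most and the 8 that fell most (mean log2 CPM no lower than 3), and listed genes with at least 4 contacts. MNX1-block, TBX3 and sequence examples were chosen after values were seen. Members and gene lists were chosen with earlier results of these data known. Alternatives were score, distance window, PIR definition, scaling (DESeq2 1.42.0 size factors), filter, fold threshold, replicate block and leaving out each replicate. Some listed genes and interactions that meet these rules are not reported here.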

Additional observations from a re-analysis of the deposited data

How the results depend on the processing

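Of 124 alternative values, 89 stayed within the stated bounds, 34 moved and 1 reversed. A score of at least 15 left 267 ESC, 725 NEC and 91 shared interactions, and keeping baits as PIRs gave 2902, 5267 and 931. Single replicate lists held 9952 to 10038 calls in ESCs and 9090 to 13952 in NECs. Matching PIRs within 10 kb raised the shared number to 819, the number in all 4 replicates to 703, and the shares called in both replicates to 45.4% in ESCs and 43% in NECs. Those shares were 69.3% and 63.7% for scores from 15 upwards. The NEC minus ESC difference in calls per replicate list was 1526 and ranged from -905, without NEC replicate 1, to 3957. With no fold change threshold 382 bait genes were higher and 365 lower in NECs (219 and 213 for contacts only in NECs, 69 and 67 for only in ESCs), where 31.5% and 29.7% of all genes tested were called. At a score of at least 15 the counts were 62 and 25, 46 and 16, and 8 and 3, of fewer genes tested, so that the share higher in NECs rose from 16.4% to 26.7%, from 15.5% to 30.1% and from 13.3% to 29.6%. PIRs with no gene were 37.8% in both replicates, 39.6% at a score of at least 15 and 59.7% counting protein-coding genes alone. CTCF matches were 1.41% at that score, 0.563% in the central 1000 bases and 6.21% with 1 mismatch, an alternative chosen after seeing the data. The cause of these shifts was not tested.

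With the replicate number as a block, 195 bait genes were higher and 121 lower (105 and 73 only in NECs, 30 and 21 only in ESCs). Same-numbered samples correlated at r = 0.074 in their deviations over 17564 genes, so the numbers were not taken to pair the samples.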
